A study of Mus musculus with 41 samples.

Results

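The 45 genes described here code for proteins that copy DNA or that carry a cell through mitosis. They were taken from a list of names, 21 for replication and 24 for mitosis; the rule has no measured threshold, but the list was drawn up with earlier results of these data known. All 45 were found under the same Ensembl identifier in the tables of the 3 experiments, which list 13886, 12984 and 13407 genes, and all 45 were tested in each.

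RNA-seq had been carried out on MEEC, a line of wild-type (WT) mouse embryonic endocardial cells, the cells that line the inside of the heart, in 41 libraries of 13 groups. In the first experiment MEEC lay over OP9 stromal feeder cells, themselves mouse cells, that expressed GFP or the Notch ligand Dll4 or Jag1, for 6 h or 24 h (n = 3 libraries a group), with MEEC seeded at 50% confluency for 6 h and 25% for 24 h. In the second, MEEC had 24 h of RO4929097 at 20 µM, an inhibitor of γ-secretase (the protease that frees the active Notch fragment), or of DMSO as its vehicle, and then lay over OP9-GFP for 6 h (n = 4). In the third, MEEC grew without feeder cells for 38 h, the last 14 h without serum, in wells with attached recombinant DLL4 or JAG1 (rDLL4, rJAG1) or without ligand. These wells held DMSO (the groups DMSO, rDLL4 and rJAG1) or 20 µM RO4929097 (rDLL4 + RO and rJAG1 + RO), with n = 3 libraries a group. There was no group of RO4929097 without ligand. MEEC are a single line, so no group samples different animals, and no label names separate cultures behind a group's libraries, so each p reflects the scatter among these libraries alone, which may be technical.

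Before a cell copies its DNA, Cdc6 and Cdt1 load a ring of the 6 Mcm proteins on each origin, and Cdc45 with the GINS complex turns that ring into the working helicase. Cyclins E and A with their kinases start the copying, and cyclin A and cyclin B with Cdk1 then bring the cell into mitosis, where kinesins, Aurora and Polo-like kinases build the spindle and the spindle checkpoint holds back anaphase. Transcripts of the replication genes are known to peak as cells enter S phase, under E2F factors, and those of the mitosis genes in G2 and M, so in a cycling culture both sets follow how many cells pass through each phase. Notch signals are known to change cell cycle exit in many tissues, endothelium included.

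The libraries held 14.1 to 16.8, 19.4 to 25.2 and 11.2 to 34.2 M reads in the 3 experiments (medians 15.2, 22.5 and 18.1). A count of 0 would allow 3 reads, a signal of at most 0.311, and the lowest member value anywhere was 136 reads (Ccne1), so depth did not limit detection of any member. Signal is the authors' normalized value, reads divided by a scaled library size. Of 14 endothelial and endocardial markers, Pecam1, Cdh5, Tie1, Erg and Emcn were not listed in any of the 3 tables, while Tek and Cd34 were, so the labelled cell type rests on part of its markers. No label says that OP9 cells were removed before RNA extraction, and reads of the feeder and of MEEC cannot be told apart in the co-cultures. In such bulk samples, fewer cells of a type and less RNA per cell cannot be told apart either.

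All 21 replication genes were read in every library of every group. Per kb of exon, Rrm2 (79.4, mean signal per kb in the first experiment), the small subunit of ribonucleotide reductase, Pcna (77.6), the sliding clamp, and Mcm4 (74.5) led, and Ccne1 (6.93), cyclin E1, Pola1 (8.70), the catalytic subunit of the primase-bound polymerase, and Pole (9.10), the leading-strand polymerase, were lowest. Of the helicase ring, Mcm3, Mcm4, Mcm5, Mcm6 and Mcm7 lay between 54.2 and 74.5 per kb, with Mcm2 at 32.6. The length used joins all annotated exons of a gene, 6956 bases for Mcm2 and 3589 to 4666 for the other Mcm genes. Before division by length, Mcm2 (median signal 226) lay near Mcm3 (231) and Mcm5 (230). The order per kb, here and for the mitosis genes, thus depends on annotated length as well as on signal. Among the 15 libraries without feeder cells, Pcna (111 per kb) replaced Rrm2 (62.6) at the top of this order.

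By library, the highest signal of each of the 6 Mcm genes was at most 1.18 times the lowest in the first experiment, 1.14 times in the second and 1.37 times in the third. Mcm2 ran from 213 to 244 (median 226) over the 18 libraries of the first experiment, from 199.7 to 224 (median 220.3) over the 8 libraries of the second and from 186 to 219 (median 206) over the 15 libraries of the third. With the experiments in that order, Mcm6 ran from 238 to 270.2 (median 252), 239.9 to 267 (260.3) and 228 to 313 (295). The factor of 1.37 in the third experiment was that of Mcm6.

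Loading factors, clamp, nucleotide and polymerase genes come next. Over the 3 experiments in turn, the signal of Cdc6 ran from 68.5 to 84.4 (median 77.8), 80.3 to 102 (89.3) and 58.3 to 73.9 (65.3), and that of Cdt1 from 69.1 to 90.6 (81.5), 65.4 to 74.6 (68.8) and 66.9 to 88.9 (78.0). Pcna ran from 159 to 213 (183), 188 to 214 (197) and 237 to 295 (268). Rrm2 ran from 158 to 258 (223), 219 to 288 (254) and 158 to 194 (175), and Pole ran from 85.5 to 125 (99.8), 102 to 114 (107) and 77.3 to 109 (92.2). Neither Rrm2 nor Pole had a library beyond 1.63 times its lowest in the same experiment. The cyclins that open S phase were Ccne1, at 12.8 to 21.9 (19.3), 19.6 to 29.8 (22.6) and 12.1 to 16.5 (13.5), and Ccne2, at 68.7 to 94.8 (79.1), 88.8 to 112 (103) and 92.4 to 110.1 (101). Ccne1 had the widest relative range of the replication genes in the first experiment, with the highest library 1.72 times the lowest.

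All 24 mitosis genes were likewise read in every library. Per kb, Cdc20 (79.6, mean signal per kb in the first experiment), the activator of the anaphase-promoting complex, Ccna2 (72.0), cyclin A2, and Top2a (70.7), the topoisomerase that untangles sister chromatids, led, followed by Plk1 (65.7), Polo-like kinase 1. Cenpf (9.63), a kinetochore protein, and Ttk (11.8), a checkpoint kinase, were lowest. In the third experiment Top2a (77.0) and Ccna2 (74.8) led and Cdc20 stood at 62.8.

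The cyclin and kinase genes of mitotic entry covered these ranges over libraries. Over the 3 experiments in turn, the signal of Ccna2 ran from 243 to 329 (median 295), 303 to 340.1 (315) and 279 to 342 (302). Ccnb1, cyclin B1, ran from 184 to 266 (240.2), 236 to 270.4 (260.0) and 214 to 265 (228), and Cdk1, its kinase, from 172 to 223 (207), 199.8 to 226 (208) and 173 to 197 (188). Plk1 ran from 103 to 172 (146), 124 to 161 (135) and 88.7 to 109 (100.3), and Aurka, the spindle pole kinase, from 76.5 to 117 (97.9), 96.7 to 125 (107) and 67.5 to 94.0 (76.8).

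The genes of the chromosomes and of mitotic exit spread further in the third experiment than in the second for Top2a and Mki67, and less for Cdc20. Top2a ran from 555 to 706 (median 647), 711 to 776 (757) and 581 to 802 (679.9) over the experiments in the same order. Mki67, which coats mitotic chromosomes and is the common marker of cycling cells, ran from 452 to 639 (563), 584 to 769.7 (646) and 409.8 to 698 (542). Cdc20 ran from 105 to 172 (154), 133 to 164 (143) and 111 to 126 (118), and Birc5, survivin, a subunit of the chromosomal passenger complex, from 83.0 to 126 (109), 102 to 119.9 (108) and 76.2 to 89.9 (80.7). Tables were normalized separately, so these levels were not tested between experiments.

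**Figure D1:**
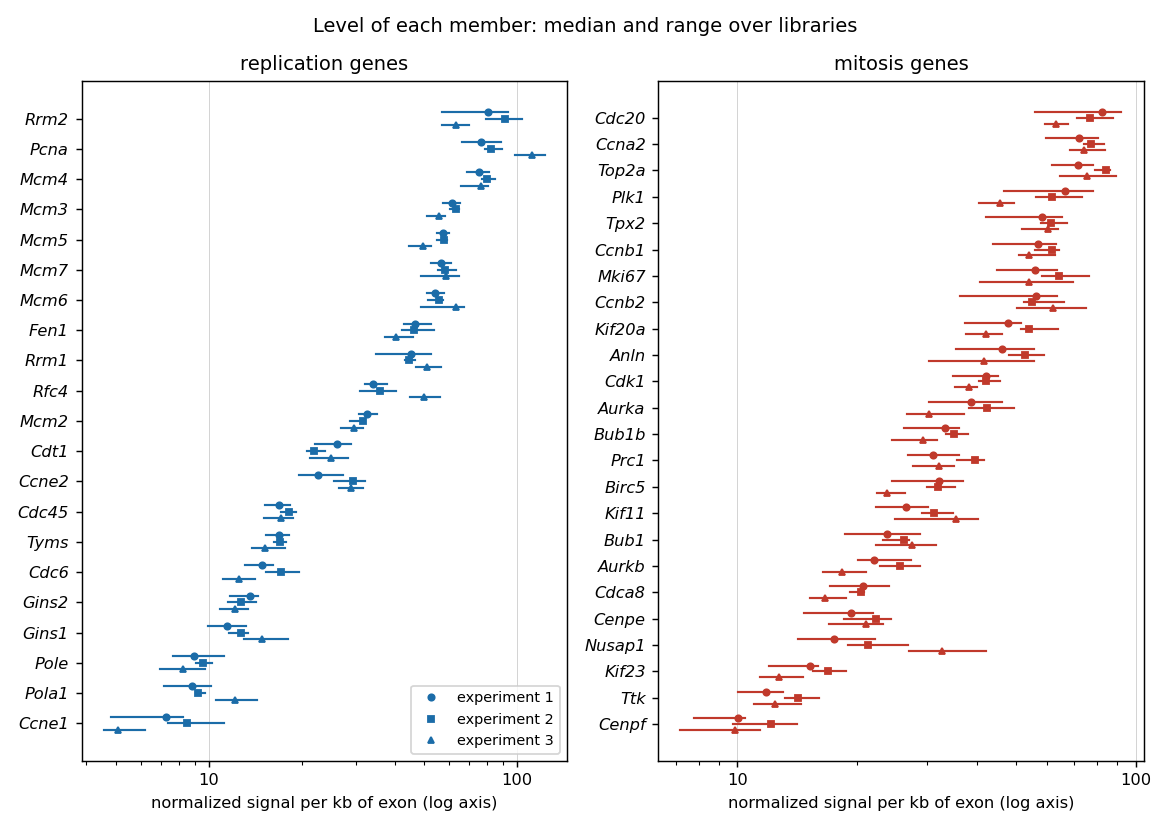
Level of each of the 21 replication genes (left) and 24 mitosis genes (right) as normalized signal per kb of exon on a log axis. Symbols give the median over the libraries of each experiment and lines the lowest to highest library. Ccne1 (mean 6.93 per kb in the first experiment) lies at the low end and Rrm2 (mean 79.4) and Cdc20 (mean 79.6) at the high end, and the libraries of a gene lie close together beside the distance between genes.

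The mitosis genes differed more between libraries than the replication genes in the co-culture. Summed over the 21 replication genes, signal ran from 3055 to 3394 in the first experiment (highest over lowest 1.11), from 3194 to 3452 in the second (1.08) and from 3117 to 3400 in the third (1.09). Summed over the 24 mitosis genes it ran from 3951 to 5387 (1.36), from 5105 to 5938 (1.16) and from 4143 to 5281 (1.27). The median SD between libraries of a group, on the log2 scale, was 0.139 for mitosis genes and 0.074 for replication genes in the first experiment, against 0.105 for the 7989 genes in the same range of signal. In the second and the third experiment it was 0.091 and 0.090 for mitosis genes, 0.064 and 0.081 for replication genes, and 0.096 and 0.117 for genes in that range.

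The lowest mitosis sums of the first experiment were those of the 6 h libraries numbered 2. Their summed mitosis signal was 3951 over OP9-GFP, 4128 over OP9-Dll4 and 4138 over OP9-Jag1, whereas the other 6 libraries at 6 h held 4477 to 5096. The library numbered 2 was the lowest of its group for 24 of 24 mitosis genes over GFP, 24 of 24 over Dll4 and 21 of 24 over Jag1, but for 7 of 21 replication genes in each group, beside 43.2%, 40.8% and 40.0% of all genes. At 24 h the library numbered 3 was the lowest for 17 of 24 mitosis genes over GFP, 20 over Dll4 and 17 over Jag1, beside 35%, 30.3% and 31.5% of all genes. Plk1 read 156, 103 and 141 in the 3 control libraries, 168, 108 and 132 over Dll4 and 164, 113 and 143 over Jag1, with the library numbered 2 lowest each time. Cdc20 read 152, 105 and 142, then 161, 117 and 141, then 157, 123 and 154 in the same order. The 3 libraries numbered 2 at 6 h also held more signal of the OP9 stromal marker list (12 of 18 genes listed), 1729, 1579 and 1476 in sum against 1021 to 1198 in the other 6. In them Cxcl12 read 279 to 505 and Dcn 471 to 502, while Lepr, Adipoq, Pparg, Il7 and Lum were not listed. The OP9 list is not specific to the feeder, since it summed to 1127 to 2051 in MEEC grown without OP9. In the 6 h libraries numbered 2 the endothelial list (9 of 14 genes listed) was also highest, at 125.2, 124.5 and 125.1 against 95.1 to 108.9. So was the leukocyte and erythroid list (3 of 10 listed), at 11.8, 11.7 and 13.1 against 6.24 to 10.1. The cardiomyocyte list (6 of 10 listed) was lowest in them, at 23.2, 24.1 and 26.4 against 28.9 to 46.9. The part of feeder RNA in the low mitosis signal was not tested.

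**Figure D2:**
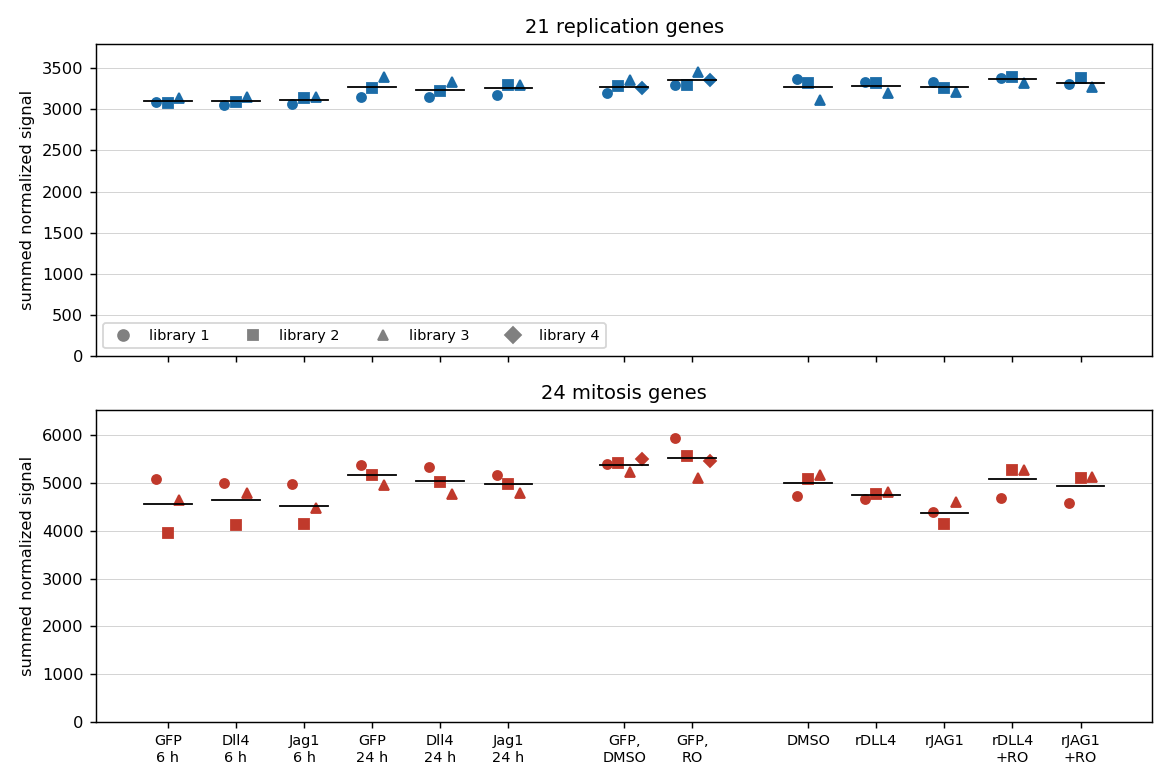
Summed normalized signal of the 21 replication genes (top) and 24 mitosis genes (bottom) in each library, with symbols for the library number and a line for the group mean; both axes start at 0. The 3 libraries numbered 2 at 6 h sit at 3951 to 4138 for mitosis genes, below the other 6 h libraries, and the rJAG1 libraries at 4143 to 4608 lie below those of DMSO.

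Promoters of the members were read for the motifs known to bind the repressor and activator complexes of the cell cycle. These were the cell cycle homology region (CHR, TTTGAA), the CCAAT box (CCAAT), and an E2F site (TTTGGCGC, TTTCGCGC, TTTCCCGC or TTTGCCGC), each on both strands. The motifs were not tested against the signal of any library. RefSeq promoter windows (build GRCm38.p6, 250 bases before to 50 after a start) matched 36 of the 45 members, 16 for replication and 20 for mitosis. The CHR letters stood in at least 1 window of 15 of 20 mitosis genes (75.0%) and 3 of 16 replication genes (18.8%). Over all 27025 genes with a window the share was 20.2%. CCAAT stood in 17 of 20 (85.0%) and 10 of 16 (62.5%), against 41.1%. Both motifs were found in 14 mitosis genes, not necessarily in the same window. The E2F letters stood in 7 of 16 replication genes (43.8%: Mcm3, Mcm5, Mcm6, Mcm7, Cdc6, Cdt1 and Pola1). They stood in 1 of 20 mitosis genes (Cdk1), against 2.6% of all genes. A match is a description of letters and not a site of binding, and a window with no match says only that these letters are not in it. The 120 bases before the start are shown for 4 mitosis genes that passed a test in the comparisons given after this, with CHR and CCAAT letters on either strand in capitals, and, with the E2F letters in capitals, for Rrm1 and Pola1, the replication genes that passed with time, and for Mcm6, which passed no test and was chosen for its matches. The stretches of Rrm1 and Pola1 hold no E2F match, and the whole window of Pola1 holds 1. In Mcm6 the first run in capitals holds an overlapping pair of matches, 1 on each strand. Nusap1 held none of the 3 motifs in its window.
Kif11, chr19:37376262-37376381, plus strand: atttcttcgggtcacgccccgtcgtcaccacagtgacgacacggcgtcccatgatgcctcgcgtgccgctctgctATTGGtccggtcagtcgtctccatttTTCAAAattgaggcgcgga
Mki67, chr7:135716380-135716499, minus strand: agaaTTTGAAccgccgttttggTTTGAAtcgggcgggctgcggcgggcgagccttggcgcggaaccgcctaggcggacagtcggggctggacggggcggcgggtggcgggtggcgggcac
Top2a, chr11:99024190-99024309, minus strand: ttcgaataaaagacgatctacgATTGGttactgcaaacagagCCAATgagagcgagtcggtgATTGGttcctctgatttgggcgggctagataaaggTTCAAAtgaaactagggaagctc
Nusap1, chr2:119618178-119618297, plus strand: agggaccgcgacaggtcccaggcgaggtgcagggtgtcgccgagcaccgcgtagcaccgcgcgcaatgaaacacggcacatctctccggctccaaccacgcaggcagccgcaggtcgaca
Rrm1, chr7:102441575-102441694, plus strand: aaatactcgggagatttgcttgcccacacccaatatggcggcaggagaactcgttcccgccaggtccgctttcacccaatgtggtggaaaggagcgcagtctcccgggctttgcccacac
Pola1, chrX:93632156-93632275, minus strand: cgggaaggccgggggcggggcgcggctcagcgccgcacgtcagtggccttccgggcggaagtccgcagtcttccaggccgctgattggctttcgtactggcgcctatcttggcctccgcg
Mcm6, chr1:128359706-128359825, minus strand: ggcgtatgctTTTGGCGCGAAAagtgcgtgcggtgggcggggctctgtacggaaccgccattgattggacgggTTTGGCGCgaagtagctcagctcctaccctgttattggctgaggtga

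The first comparison asked whether 6 h over a feeder with a Notch ligand changed these genes, relative to OP9-GFP. None did by the test used throughout: limma on log2(signal + 1), with adjusted p (Benjamini-Hochberg over all genes of the table) under 0.05. Of the 45 members, 0 passed for Jag1 against GFP, beside 0.101% of all genes, and 0 passed for Dll4 against GFP, beside 0.0072%. At an unadjusted p under 0.05 the count was also 0 of 45 in each, and edgeR on the recovered reads called 0. The 95% intervals of all 45 members lay within a 1.5-fold change either way in both comparisons. The widest were those of Ccne1 (log2 fold change between -0.36 and 0.43 for Jag1) and Plk1 (-0.27 to 0.43).

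The members with the smallest unadjusted p at 6 h were close to the control. Anln, anillin, which scaffolds the cytokinetic ring, read 386, 321 and 362 over Jag1 and 426, 356 and 401 over GFP, so the groups overlapped (log2 fold change -0.15 ± 0.08 SE, adjusted p = 0.9995). With the library number as a block within each time, Anln passed (adjusted p = 0.039, beside 3.36% of all genes), as 1 of 45 members. Gins2, a GINS subunit, differed by 0.10 ± 0.06 and Mcm5 by 0.06 ± 0.05 over Jag1, neither past the test. For Dll4 the smallest p belonged to Rfc4, a clamp loader subunit (0.10 ± 0.07), Ttk (0.09 ± 0.07) and Cdk1 (0.11 ± 0.09). Dll4 against Jag1 at 6 h gave 0 of 45 calls, beside 0.0% of all genes, 0 at an unadjusted p under 0.05 and 0 by edgeR, with Cenpf (0.12 ± 0.10), Mki67 (0.10 ± 0.08) and Anln (0.08 ± 0.08) nearest. Of the other replication genes on a fixed list, 0 of 45 passed in any of these 3 comparisons, and of the other mitosis genes 0 of 54.

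At 24 h no replication or mitosis gene passed, a count close to what the low shares of all genes give. Over Jag1, 281 genes passed, 2.02% of all, and 0 of 45 members. Over Dll4, 71 passed, 0.511%, and 0 of 45 members. At an unadjusted p under 0.05 there was 1 member in each, Anln, and edgeR called 0. Of all 13886 genes, 1453 over Jag1 and 944 over Dll4 were under that cut-off. Anln read 418, 439 and 420.0 over Jag1, 451, 446 and 425 over Dll4, and 503, 502 and 491 over GFP. All ligand libraries lay below all GFP libraries. The log2 fold change was -0.23 ± 0.08 for Jag1 (adjusted p = 0.19) and -0.18 ± 0.08 for Dll4 (adjusted p = 0.63). With the library number as a block within each time, Anln alone of the 45 passed, with adjusted p = 0.00046 over Jag1 and 0.0064 over Dll4, beside 10.9% and 5.82% of all genes. The 2 comparisons share their control libraries.

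The rest of the set stayed near the control at 24 h. The median log2 fold change over Jag1 was 0.02 for replication and -0.03 for mitosis genes, and over Dll4 0.00 and -0.01, beside 0.00 for all genes in both. After Anln, the smallest p belonged to Ttk (-0.12 ± 0.07) and Rfc4 (-0.10 ± 0.07) over Jag1 and to Gins1 (0.16 ± 0.09) and Bub1 (-0.14 ± 0.09), a checkpoint kinase, over Dll4. The intervals of all 45 members lay within 1.5-fold in both comparisons. Dll4 against Jag1 gave 0 of 45, beside 0.0288%, 0 at an unadjusted p under 0.05 and 0 by edgeR, with Ttk (0.12 ± 0.07), Pola1 (0.06 ± 0.07) and Mcm4 (-0.06 ± 0.07) nearest. Among the other lists, 0 of 45 replication and 0 of 54 mitosis genes passed against GFP at 24 h. Of the 20 G1 regulators, 1 passed: Cdkn1a, an inhibitor of cyclin-dependent kinases, rose over Jag1 from 40.1 ± 6.61 to 72.2 ± 14.8 (SD, n = 3, adjusted p = 0.022 by limma).

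Whether the effect of a ligand differed between 24 h and 6 h was tested as an interaction. No member passed for Jag1 or for Dll4, beside 0.0072% of all genes in each, with 0 members at an unadjusted p under 0.05 and 0 by edgeR. The nearest were Rfc4 (-0.17 ± 0.10), Ttk (-0.15 ± 0.10) and Gins1 (0.17 ± 0.13) for Jag1, and Rfc4 (-0.16 ± 0.10), Gins1 (0.21 ± 0.13) and Bub1 (-0.21 ± 0.13) for Dll4. The interval of Ccne1 reached past 1.5-fold in both (up to 0.70 and 0.71), and those of the other 44 did not.

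**Figure D3:**
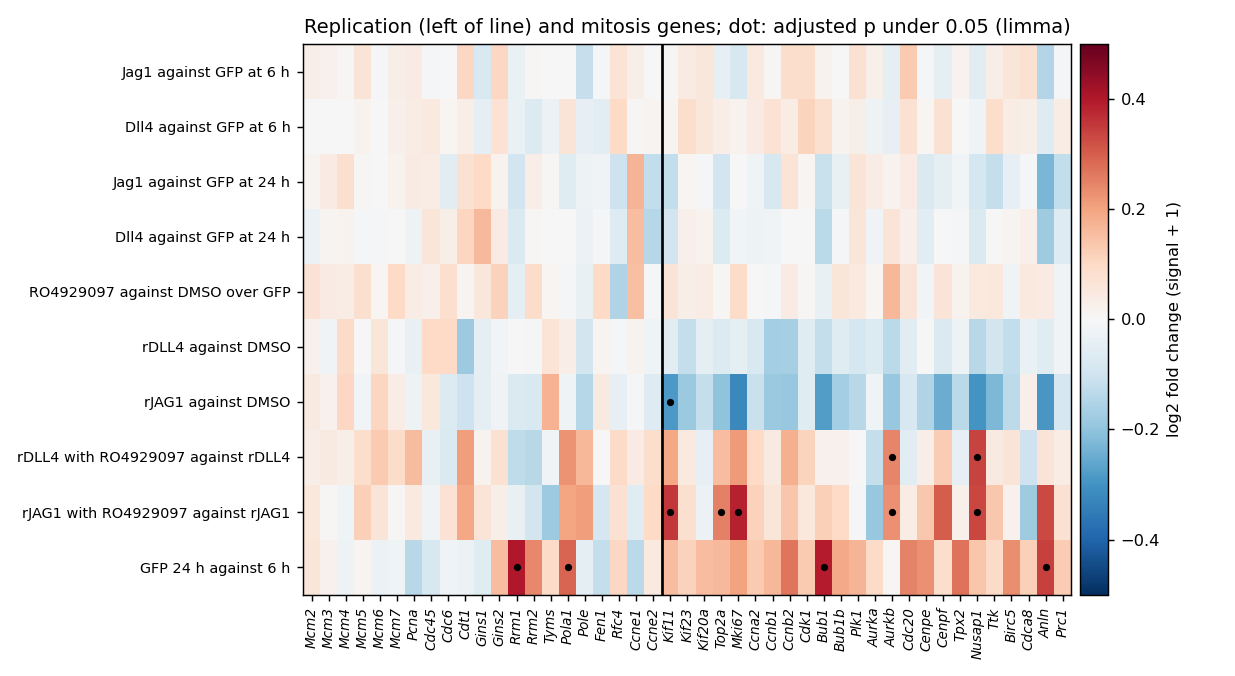
Log2 fold change of each member (columns, replication genes left of the line) in 10 comparisons (rows), on a scale from -0.5 to 0.5, with a dot where the adjusted p was under 0.05. The 4 rows of feeder-bound ligand hold no dot, rJAG1 against DMSO is blue over nearly all mitosis genes with a dot for Kif11 alone, and the rows of RO4929097 on recombinant ligand hold 2 and 5 dots.

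RO4929097 ahead of 6 h over OP9-GFP, compared with DMSO, asked what blocking Notch in the absence of added ligand does. None of the 45 members passed, beside 0.909% of all genes. The count at an unadjusted p under 0.05 was 2 by limma and 3 by edgeR, and edgeR called 0. By limma, 1362 of all 12984 genes were under that cut-off. Aurkb, the kinase of the chromosomal passenger complex, read 84.9, 82.6, 82.6 and 75.5 with the inhibitor and 74.2, 67.4, 72.8 and 75.6 with DMSO. Of the 4 inhibitor libraries, 3 lay above all DMSO libraries (0.16 ± 0.06, adjusted p = 0.29). Rfc4 differed by -0.15 ± 0.07 (adjusted p = 0.47) and Gins2 by 0.12 ± 0.06 (adjusted p = 0.52). The intervals of all 45 lay within 1.5-fold, the widest being Ccne1 (-0.12 to 0.42).

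Of the members, 16 of 21 replication and 18 of 24 mitosis genes were higher with the inhibitor, each set with a median of 0.04, beside 0.00 for all genes. The groups did not overlap in Mcm5, at 234 to 237 with the inhibitor and 219.5 to 226 with DMSO (0.08 ± 0.04, adjusted p = 0.56), or in Gins2, at 52.4 to 58.4 and 47.2 to 51.4; Mcm5 was named after its values were seen. In all other members the groups overlapped. The share of all genes without overlap was not counted, so the separation of Mcm5 and Gins2 cannot be read as particular to them. Mcm6 read 259.6, 261, 267 and 239.9 with the inhibitor and 265, 245, 265 and 245 with DMSO. Top2a read 776, 759, 711 and 758 against 776, 729.8, 733 and 757. Of the other replication genes 37 of 45 were higher with the inhibitor, with a median of 0.05 and 0 called, beside 0.00 for all genes. Of the other mitosis genes 36 of 54 were higher, and 0 passed. Of the 20 G1 regulators, 1 passed: Ccnd1, cyclin D1, rose from 61.4 ± 2.40 to 90.7 ± 9.63 (SD, n = 4, adjusted p = 0.0068 by limma). The libraries numbered 1 held an OP9 marker sum (10 of 18 genes listed) of 2019 with DMSO and 2009 with the inhibitor, against 1102 to 1353 in the other 6. Of this list Cxcl12 read 931 and 1034 in them against 176 to 287, whereas Dcn was at its lowest of the experiment (211) in the inhibitor library numbered 1. Their mitosis sums were 5393 and 5938, the latter the highest of the experiment.

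On rJAG1 in wells without feeder cells, 1 mitosis gene fell against DMSO and most others had lower values that did not pass. Kif11 (ENSMUSG00000012443, GRCm38 chr19:37376403-37421859, plus strand), the kinesin that pushes spindle poles apart, read 227, 186 and 239.8 on rJAG1 and 262, 270.0 and 260.2 with DMSO. All rJAG1 libraries lay below all DMSO libraries. Kif11 fell by 0.29 ± 0.08 on the log2 scale (218 ± 28.0 against 264 ± 5.29, SD, n = 3, adjusted p = 0.031) and was the 1 member of 45 that passed, beside 9.58% of all genes in either direction and 4.76% lower. The share of members called was below that of all genes. Of the 24 mitosis genes 23 were lower on rJAG1, with a median of -0.18, beside 0.00 for all genes and 6663 of 13407 genes lower. Of the 21 replication genes 13 were lower, with a median of -0.02.

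At an unadjusted p under 0.05, 14 members differed, 13 of them mitosis genes, beside 2801 of all 13407 genes. With the library number as a block, which pairs these libraries, 10 members passed, beside 15.1% of all genes: 9 mitosis genes fell (Kif11, Kif23, Top2a, Mki67, Ccnb1, Bub1, Aurkb, Nusap1 and Ttk) and Tyms, thymidylate synthase, rose. Nusap1, a microtubule-bundling spindle protein, read 109, 116 and 120.1 on rJAG1 and 133, 161 and 133 with DMSO. Mki67 read 454, 409.8 and 473 against 518, 613 and 542. For these 2 genes also, no rJAG1 library reached the lowest DMSO library. The call of Kif11 was lost without the rJAG1 library numbered 2 (-0.18, adjusted p = 0.092), without the DMSO library numbered 1 (adjusted p = 0.077) and without the DMSO library numbered 2 (adjusted p = 0.097).

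Of the other mitosis genes 52 of 54 were lower on rJAG1 (median -0.16), and 8 passed, all lower: Aspm, Espl1, Kif20b, Kif2c, Lmnb1, Nek2, Nuf2 and Troap. Of the other replication genes 34 of 45 were lower (median -0.06) and 0 passed. Of the 20 G1 regulators 4 rose and 1 fell. Among them Cdkn1a rose from 33.2 ± 4.52 with DMSO to 71.8 ± 5.94 on rJAG1 (SD, n = 3, adjusted p = 1.1e-05 by limma). Its part in the values of the mitosis genes was not tested.

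On rDLL4 against DMSO no member passed, beside 3.5% of all genes, although 24 of 24 mitosis genes were lower (median -0.07). The count at an unadjusted p under 0.05 was 2 by limma and 4 by edgeR, and edgeR called 0. By limma, 1543 of all 13407 genes were under that cut-off. Ccnb1 read 230.6, 223 and 219.7 on rDLL4 and 247, 246 and 265 with DMSO, with no overlap (-0.17 ± 0.06, adjusted p = 0.17). Birc5 differed by -0.12 ± 0.06 (adjusted p = 0.38) and Cdt1 by -0.18 ± 0.09 (adjusted p = 0.46). Replication genes had a median of 0.00, with 12 of 21 lower. Of the other mitosis genes 50 of 54 were lower and 1 passed, Lmnb1, lamin B1. Of the 20 G1 regulators 3 rose and 1 fell. Cdkn1a rose here too, from 33.2 ± 4.52 with DMSO to 53.8 ± 4.88 on rDLL4 (SD, n = 3, adjusted p = 0.0026 by limma). Its part in the values of the mitosis genes on rDLL4 was not tested. The comparisons of rDLL4 and rJAG1 share their DMSO libraries.

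Set against each other, rDLL4 and rJAG1 gave no member past the test, beside 0.231% of all genes, with 22 of 24 mitosis genes higher on rDLL4 (median 0.07). The count at an unadjusted p under 0.05 was 3 by limma and by edgeR, and edgeR called 0. By limma, 958 of all 13407 genes were under that cut-off. Kif11 was 254 ± 8.74 on rDLL4 and 218 ± 28.0 on rJAG1 (SD, n = 3, 0.23 ± 0.08, adjusted p = 0.43). Mki67 differed by 0.27 ± 0.11 (adjusted p = 0.57) and Cdc6 by 0.17 ± 0.07 (adjusted p = 0.60). The intervals of all 45 lay within 1.5-fold.

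RO4929097 on top of rJAG1 raised 5 of 24 mitosis genes and 0 of 21 replication genes relative to rJAG1 alone. Of all genes, 18.4% were called in either direction and 9.58% higher. The latter share was close to that of the 45 members together and below that of the mitosis genes alone, a difference that was not tested. Kif11 read 265, 283 and 284 with the inhibitor and 227, 186 and 239.8 without, and rose by 0.36 ± 0.08 (adjusted p = 0.0049). Nusap1 read 125, 162 and 152 against 109, 116 and 120.1, and rose by 0.33 ± 0.09 (adjusted p = 0.019). Mki67 read 499, 649 and 604 against 454, 409.8 and 473, and rose by 0.38 ± 0.11 (adjusted p = 0.021).

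The other 2 were Aurkb and Top2a. Aurkb read 53.9, 58.9 and 60.8 against 49.9, 49.3 and 48.2 and rose by 0.23 ± 0.07 (adjusted p = 0.024). Top2a read 679.9, 763 and 752 against 618, 581 and 642 and rose by 0.25 ± 0.08 (adjusted p = 0.031). In all 5 genes every library with the inhibitor lay above every library without. The inhibitor library numbered 1 was the lowest of its group in all 5 and in 23 of 24 mitosis genes, beside 36.5% of all genes. On rDLL4 the inhibitor library numbered 1 was the lowest in 21 of 24, beside 36.4%.

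Over the set, 20 of 24 mitosis genes were higher with the inhibitor (median 0.11) and 14 of 21 replication genes (median 0.05), beside 0.01 for all genes. At an unadjusted p under 0.05 there were 13 members, beside 4132 of all 13407 genes. With the library number as a block 11 passed, beside 27.1% of all genes: Cdt1 and Pola1 rose and Tyms fell among replication genes, and Anln, Aurkb, Cenpf, Kif11, Mki67, Nusap1 and Top2a rose and Cdca8 fell among mitosis genes. Kif11 passed in 6 of 6 fits that left out a library of these groups. Mki67, Nusap1 and Aurkb passed in 3 of 6 and Top2a in 2 of 6. Without the inhibitor library numbered 2 or that numbered 3, Kif11 alone passed. Of the other mitosis genes 11 of 54 passed, all higher. Cdkn1a fell from 71.8 ± 5.94 to 25.7 ± 2.35 (SD, n = 3, adjusted p = 3.3e-07 by limma), and its part in the values of the members was not tested.

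RO4929097 on top of rDLL4 raised 2 of 45 members, both of them mitosis genes. Of all genes, 10.7% were called in either direction and 4.91% higher, the latter close to the share of the 45 members together. Aurkb read 59.0, 61.4 and 61.8 with the inhibitor and 49.9, 51.0 and 52.4 without (0.25 ± 0.07, adjusted p = 0.025). Nusap1 read 154, 164 and 171 against 129, 129 and 128 (0.34 ± 0.09, adjusted p = 0.028). The groups did not overlap in either gene. Both calls were lost in 5 of 6 fits that left out a library, with fold changes of 0.23 to 0.26 for Aurkb and 0.30 to 0.34 for Nusap1 there, and held without the inhibitor library numbered 1. Mitosis genes had a median of 0.05 (18 of 24 higher) and replication genes 0.05 (15 of 21 higher), beside 0.00 for all genes. Of the other mitosis genes 3 of 54 passed (Cdc25b, Cdca3 and Lmnb1, higher), and of the other replication genes 0 of 45, of which 41 were higher. Cdkn1a fell with the inhibitor on rDLL4 as well, from 53.8 ± 4.88 to 24.4 ± 3.025 (SD, n = 3, adjusted p = 1.2e-05 by limma). Its part in the values of the members was not tested.

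Whether the inhibitor acted differently on the 2 ligands was tested as an interaction. No member passed, beside 0.0149% of all genes, with 0 at an unadjusted p under 0.05 and 0 by edgeR. Tyms (0.16 ± 0.09), Kif11 (-0.16 ± 0.11) and Anln (-0.26 ± 0.18) were nearest. The interval of Anln reached to -0.65, beyond 1.5-fold, and the other 44 did not.

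**Figure D4:**
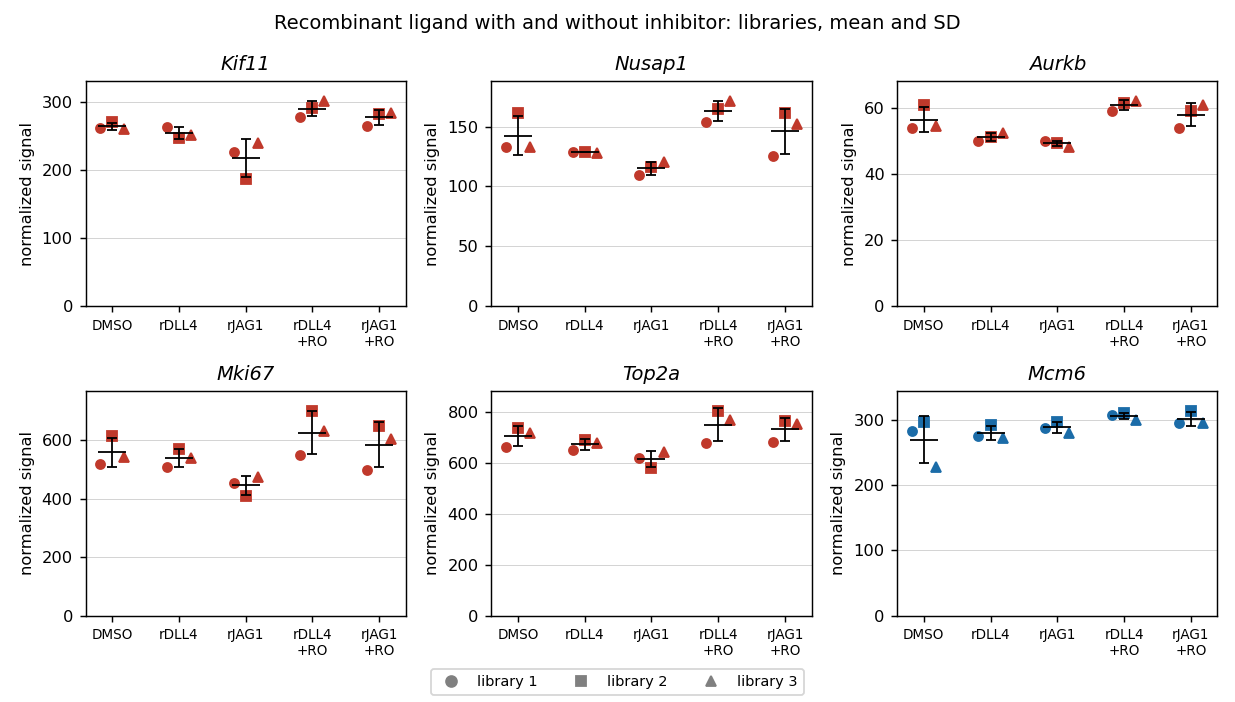
Normalized signal of 5 mitosis genes (red) and of the replication gene Mcm6 (blue) in each library of the 5 groups without feeder cells, with the group mean and SD (n = 3); axes start at 0. The rJAG1 libraries of Kif11 sit at 186 to 239.8, below the other groups, and the inhibitor groups reach 265 to 301, while Mcm6 lies between 272 and 313 in all libraries but 1 of DMSO at 228.

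The groups with ligand and inhibitor together were then compared with DMSO alone. No member passed for rDLL4 + RO, beside 1.4% of all genes, or for rJAG1 + RO, beside 0.94%. The counts at an unadjusted p under 0.05 were 5 and 6 by limma and 4 and 6 by edgeR, which called 0 in each. By limma, 1584 and 1285 of all 13407 genes were under that cut-off. Pola1 read 115, 126 and 127 on rDLL4 + RO and 97.7, 107 and 101 with DMSO, with no overlap (0.26 ± 0.07, adjusted p = 0.11). With the library number as a block it passed (adjusted p = 0.032), as 1 of 45 beside 4.38% of all genes. Rrm2 was lower in both, 165 ± 3.07 and 163 ± 4.58 against 183 ± 9.82 (SD, n = 3), with -0.15 ± 0.06 (adjusted p = 0.29) and -0.17 ± 0.06 (adjusted p = 0.25).

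Mcm6 differed by 0.19 ± 0.08 on rDLL4 + RO (adjusted p = 0.35), where the DMSO library numbered 3 read 228 against 283 and 297 in the other two, and all 3 inhibitor libraries, at 300.3 to 310.2, lay above all 3 DMSO libraries. On rJAG1 + RO, Aurka differed by -0.21 ± 0.08 (adjusted p = 0.33) and Pola1 by 0.18 ± 0.07 (adjusted p = 0.42). Between rDLL4 + RO and rJAG1 + RO there were 0 of 45 calls, beside 0.0%, 0 at an unadjusted p under 0.05 and 0 by edgeR, with Nusap1 (0.17 ± 0.09), Pcna (0.09 ± 0.08) and Cdk1 (0.06 ± 0.05) nearest. The intervals of all 45 members lay within 1.5-fold in these 3 comparisons.

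The last comparison was that of 24 h with 6 h of co-culture, which also differ in seeding confluency, so that time and density cannot be told apart. Over OP9-GFP, 4 of 45 members rose from 6 h to 24 h, beside 19.2% of all genes called in either direction and 9.45% higher, a share close to that of the members. Rrm1 (ENSMUSG00000030978, GRCm38 chr7:102441695-102469771, plus strand), the large subunit of ribonucleotide reductase, read 468, 397 and 435 at 6 h and 563, 580.4 and 568 at 24 h (0.40 ± 0.07, adjusted p = 0.0013). Pola1 read 70.5, 63.0 and 73.7, then 78.7, 85.9 and 89.2 (0.29 ± 0.07, adjusted p = 0.0063). Anln read 426, 356 and 401, then 503, 502 and 491 (0.34 ± 0.08, adjusted p = 0.0064), and Bub1 101, 81.3 and 91.3, then 118, 125 and 117 (0.39 ± 0.09, adjusted p = 0.0090). In each of these genes all 24 h libraries lay above all 6 h libraries. The call of Bub1 was lost without the 6 h library numbered 2 (0.31, adjusted p = 0.054).

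The same comparison of times over the ligand lines gave 4 members for Jag1, beside 14.7% of all genes in either direction and 7.14% higher. For Dll4 it gave 2, beside 17.4% and 9.09%. All 6 were higher at 24 h. Rrm1 rose over Jag1 from 443, 395 and 430.4 to 533, 528 and 541 (0.34 ± 0.07, adjusted p = 0.0043) and over Dll4 from 447, 384 and 440.3 to 542, 544 and 542 (0.36 ± 0.07, adjusted p = 0.0026). Its call held in 6 of 6 fits that left out a library, over each of the 3 feeders. Pola1 rose over Jag1 from 69.9, 68.0 and 69.0 to 77.9, 83.9 and 80.9 (0.23 ± 0.07, adjusted p = 0.028) and over Dll4 from 70.4, 68.6 and 77.4 to 83.8, 84.0 and 85.7 (0.23 ± 0.07, adjusted p = 0.026). Over Jag1, Mki67 rose by 0.29 ± 0.08 (adjusted p = 0.029) and Anln by 0.26 ± 0.08 (adjusted p = 0.031). These 3 calls over Jag1 held in 1 or 2 of 6 such fits, and Pola1 over Dll4 in 1 of 6.

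Most mitosis genes had higher values at 24 h, although 2 of 24 passed over GFP, 2 over Jag1 and 0 over Dll4. Of the 24 mitosis genes 24 were higher over GFP (median 0.16), 23 over Jag1 (0.10) and 24 over Dll4 (0.11), beside -0.01, 0.00 and -0.01 for all genes. Of the 21 replication genes 10, 11 and 11 were higher, with medians of -0.02, 0.00 and 0.00. Without the 6 h libraries numbered 2, an alternative chosen after seeing the data, the mitosis medians were 0.06, 0.03 and 0.02, with 19, 18 and 13 of 24 higher, so these 3 libraries moved the medians by over 1.5 times. The counts of members called were then 5 over GFP, 4 over Jag1 and 2 over Dll4, beside 15.5%, 12.6% and 14.1% of all genes. OP9 marker sums at 24 h ran from 1028 to 1345, and at 6 h from 1021 to 1729. Their part in the mitosis medians was not tested.

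Direction also depended on the scaling between times. The authors' scaled library size was above the read total in all 9 libraries at 6 h and below it in all 9 at 24 h. Scaled to the total of recovered reads instead, also chosen after seeing the data, the median of all genes moved to -0.10 over GFP, -0.08 over Jag1 and -0.09 over Dll4. Calls over all genes went from 1312 higher and 1348 lower to 620 and 2347 over GFP, from 991 and 1057 to 587 and 1845 over Jag1, and from 1262 and 1157 to 593 and 2090 over Dll4. Under it the mitosis medians were 0.07, 0.02 and 0.02 and the replication medians -0.11, -0.08 and -0.09, the latter at the median of all genes, and Rrm1 still passed over each feeder (0.31, 0.26 and 0.27). Fen1, the flap endonuclease, then fell over all 3 feeders, and Pcna over Dll4, and 5, 2 and 3 members passed, beside 21.4%, 17.5% and 19.3% of all genes. With quantile normalization Rrm1 passed over GFP (0.21) and Jag1 (0.18) but not Dll4 (0.16, adjusted p = 0.060), and the members called over Dll4 were Mcm5 and Pcna, both lower. The counts were 4, 3 and 2, beside 13.6%, 12.1% and 11.8% of all genes.

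The other lists were mixed with time over OP9-GFP. Of the other replication genes 3 rose and 5 fell of 45, and of the other mitosis genes 6 rose and 2 fell of 54. Of the 20 G1 regulators 5 rose, among them Cdkn1a, from 21.2 ± 4.59 to 40.1 ± 6.61 (SD, n = 3, adjusted p = 0.0033 by limma).

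**Figure D5:**
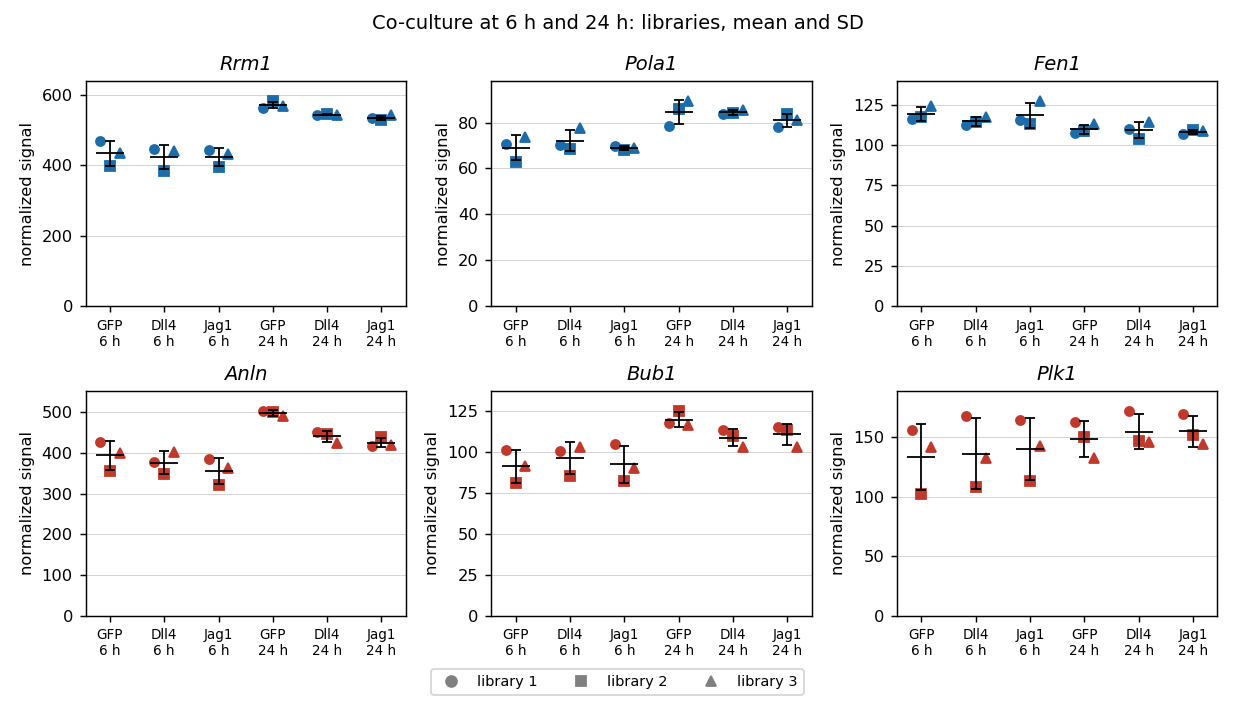
Normalized signal of 3 replication genes (blue) and 3 mitosis genes (red) in each co-culture library at 6 h and 24 h, with the group mean and SD (n = 3); axes start at 0. Rrm1 sits at 384 to 468 at 6 h and 528 to 580.4 at 24 h over all 3 feeders, while the square of library 2 is the lowest at 6 h in Anln, Bub1 and Plk1 in every feeder group.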

How the data were processed

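RNA of 41 MEEC libraries in 13 groups had been extracted with a PicoPure kit and sequenced after NEBNext Ultra preparation, per the labels' protocols. Tools in the submitters' processing notes are cutadapt, FastQC, limma and RSEM, with build GRCm38; their versions and the strand setting are not given in the sources used here. For each of the 3 experiments the authors deposited a table of normalized signal. Each value equals whole reads plus 0.5 over a scaled library size; whole reads came back for 100% of values within 0.01 reads, with a step test passed in 30 libraries and too few low values for it in 11.

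Genes were tested with limma 3.58.1 in R 4.3.3 (mean-variance trend) on log2(signal + 1), all groups of a table in 1 fit, with Benjamini-Hochberg adjustment over the table. Fold changes are on that scale, which understates changes of low genes. A filter (signal of 1 or more in at least the number of libraries of the smallest group) took out 0 genes. Members and lists were chosen with earlier results of these data known. Values are given for members with adjusted p under 0.05 (above 8, the 4 largest changes per set), for the 3 smallest unadjusted p where none pass, and by level for 18 genes chosen by role. Fen1, Mcm5 and Pcna under other scalings, Nusap1 and Mki67 on rJAG1, and the blocked calls were named after their values were seen. The calls among the other replication genes for the inhibitor on rJAG1 are not reported here. Tests stay within a table. The scripts were tested on simulated data. Alternatives were edgeR 4.0.16 on recovered reads, a pseudocount of 0.5, a mean signal of at least 5, quantile normalization, library weights, only the groups compared, the library number as a block, and leaving out each library; 2 more were added after seeing the data (scaling to total reads, and without the 6 h libraries numbered 2).

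Deviations from the group mean correlated between libraries of the same number (above 0.1 in every pair) in all comparisons within a time or experiment, at 0.11 to 0.68, except rDLL4 + RO against rDLL4 (lowest 0.08). Between 6 h and 24 h the lowest was 0.03, so numbers were not taken to pair libraries there. No label says what the numbers mark. Exon lengths and positions come from GENCODE M21 (GRCm38). Counting error alone is covered by the floor of 3 reads.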

Additional observations from a re-analysis of the deposited data

Results flagged for a closer look

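Over 94 tests of a group of 4 libraries (45 genes and 2 sums in each of the 2 groups of the second experiment), 4 found a library far from the rest, and chance gives about 1 in 20. Mki67 read 659.8 in the DMSO library numbered 1 against 625.8 to 631.5 in the other 3. Mcm7, a helicase subunit, read 254.0 in the inhibitor library numbered 4 against 278.2 to 280.2. Gins2 read 58.41 in the inhibitor library numbered 3 against 52.42 to 52.82. Cdca8, borealin of the chromosomal passenger complex, read 102.4 in that same library against 107.3 to 107.9.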

How the results depend on the processing

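Counts are members called of 45. A count without a share of all genes beside it, as with library weights, cannot be read as particular to the members. With library weights there was 1 for Jag1 against GFP at 6 h (Gins2), 1 at 24 h (Anln), 1 for rDLL4 against DMSO, 5 for rJAG1 against DMSO, 6 and 11 for the inhibitor on rDLL4 and rJAG1, 5 and 2 for rDLL4 + RO and rJAG1 + RO against DMSO, and 11, 9 and 6 for 24 h against 6 h over GFP, Jag1 and Dll4. The replicate block gave 10 for rJAG1 against DMSO, beside 15.1% of all genes, and 1 for rDLL4 + RO against DMSO, beside 4.38%. It gave 5 for the inhibitor on rDLL4, beside 1101 higher and 1214 lower of all 13407 genes, and 11 on rJAG1, beside 27.1%. For 24 h against 6 h over GFP, Jag1 and Dll4 it gave 15, 8 and 8. Of all 13886 genes, it then called 2317 higher and 2217 lower over GFP, 1781 and 1727 over Jag1, and 2257 and 1938 over Dll4. In these 3 comparisons of times and the inhibitor on rDLL4, not every pair of same-numbered libraries correlated above 0.1. No label says what the numbers mark, so pairing there is not settled. A replicate block within each time gave 1 for Jag1 against GFP at 6 h, 1 at 24 h and 1 for Dll4 at 24 h, and the block changed no other count by over 1.5 times. Fitting only the groups compared gave 2 for Jag1 and 1 for Dll4 at 24 h against 6 h, 0 for rJAG1 against DMSO, and 4 and 3 for the inhibitor on rDLL4 and rJAG1. Scaling to the total of recovered reads, chosen after seeing the data, gave 2 for Jag1 at 24 h against 6 h and 2 for rJAG1 against DMSO. The causes were not tested.

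Leaving out 1 library gave 3 to 7 members for GFP, 1 to 5 for Jag1 and 1 to 3 for Dll4 at 24 h against 6 h, 0 to 3 for rJAG1 against DMSO, 0 to 2 for the inhibitor on rDLL4 and 1 to 7 on rJAG1. In the other 15 comparisons every such fit gave 0. A pseudocount of 0.5, a mean signal of at least 5 and edgeR kept each count within 1.5 times. Quantile normalization gave 2 for Dll4 at 24 h against 6 h as before, but 0 of these were the same genes. With 3 or 4 libraries a group, the smallest change called in a member was 0.23 on the log2 scale, and a member that did not pass may still differ within its interval.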
